A study of Mus musculus with 11 samples.

Results

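The regions described here are the 7453 distal peaks that only the first of 2 CBX6 ChIP-seq replicates called in mouse embryonic stem cells (ESCs). A ChIP-seq peak is a stretch of the genome where DNA fragments pulled down with a chromatin protein pile up. The distal peaks were chosen by overlap and position: a peak of CBX6 replicate 1 was kept if it shared no base with any peak of CBX6 replicate 2, CBX7 or RING1B and did not reach within 2.5 kb of an annotated transcript start. They made up 34.1% (95% Wilson interval 33.5 to 34.7%, counting error only) of the 21865 peaks of replicate 1, out of 36229 peaks in the 4 lists together. Since each list came from 1 library, peak classes were compared as shares, with no test over samples.

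All samples were E14Tg2A ESCs grown without feeders on gelatin in serum with leukemia inhibitory factor (LIF). Both CBX6 libraries were anti-HA ChIPs from ESCs whose endogenous Cbx6 gene had been given a C-terminal 3×HA tag by CRISPR-Cas9, made as single-cell clones, and CBX7 and RING1B were pulled down with their own antibodies. The RNA-seq groups were ESCs transduced with a lentiviral shRNA, either a control (shCTL, n = 2) or one against Cbx6 (shCbx6, n = 2). Which Cbx6 shRNA each library carried is not given in the sources used here. Of the 11 samples, the anti-HA control ChIP and the 2 IgG ChIPs were not analysed here, so the background of the anti-HA antibody at these regions could not be set beside the peaks. Nothing in the labels says that the shRNA libraries came from separate transductions, so p-values measure only the spread between these libraries.

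CBX6 is a chromobox protein, a member of a family that can sit in the Polycomb repressive complex PRC1 together with the ubiquitin ligase RING1B. In ESCs CBX7, which can bind the H3K27me3 mark left by PRC2, is the main chromobox protein of the canonical form of that complex. Polycomb complexes in ESCs are known for CpG islands at the promoters of silent developmental genes. Regions away from promoters that hold clusters of transcription factor sites, called enhancers, are known for the binding of OCT4, SOX2, NANOG, ESRRB and KLF factors in these cells.

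The lists differed widely in length, with 21865 peaks in CBX6 replicate 1, 5103 in CBX6 replicate 2, 5081 for CBX7 and 4180 for RING1B. Of the replicate 1 peaks, 16837 (77.0%) overlapped no other list, and 44.3% of these were distal. The other replicate 1 peaks served for comparison: 9384 promoter peaks of replicate 1 only, 969 distal peaks shared with another list and 4059 promoter peaks shared with another list. Sequencing depth is unknown for peak lists, and the part that depth or enrichment had in the length of the replicate 1 list was not tested. The RNA libraries each had between 11116 and 11325 genes at 1 FPKM or more (fragments per kilobase of transcript, corrected for library size), and all 8 ESC markers were at 1 FPKM or more in both groups.

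At the level of sequence, the distal peaks were moderately GC rich and poor in CpG. The 300 bases at the centre of a distal peak held a median of 52.0% G and C and 5 CpG dinucleotides, against 41.7% and 2 in 25555 windows of the same length spaced every 100 kb along the genome. Shared distal peaks held a median of 59.0% G and C and 14 CpG. The windows printed here are the central 240 bases of the highest-scored intronic and intergenic distal peaks, of the highest-scored distal peak at each of 4 genes described later, and of the highest-scored intronic and intergenic shared distal peaks for contrast. They were chosen after their values were seen, they are given on the plus strand of mm9, and capitals mark CpG dinucleotides.
Intron of Msi2, chr11:88551099-88551338: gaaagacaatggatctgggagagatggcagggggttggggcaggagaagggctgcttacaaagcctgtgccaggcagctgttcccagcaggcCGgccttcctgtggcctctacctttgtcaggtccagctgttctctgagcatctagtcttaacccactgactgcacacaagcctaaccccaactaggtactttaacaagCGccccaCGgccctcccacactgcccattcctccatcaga
Intergenic, nearest to Lhx2, chr2:38273572-38273811: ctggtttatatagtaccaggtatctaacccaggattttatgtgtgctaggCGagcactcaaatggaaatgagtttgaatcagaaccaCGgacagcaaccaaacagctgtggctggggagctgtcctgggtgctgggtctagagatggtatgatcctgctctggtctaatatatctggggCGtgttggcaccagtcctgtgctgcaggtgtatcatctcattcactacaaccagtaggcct
Intron of Esrrb, chr12:87838887-87839126: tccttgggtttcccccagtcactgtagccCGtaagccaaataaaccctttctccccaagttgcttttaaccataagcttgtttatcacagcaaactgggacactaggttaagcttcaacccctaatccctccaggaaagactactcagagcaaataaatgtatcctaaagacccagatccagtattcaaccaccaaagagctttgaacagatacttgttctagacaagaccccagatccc
Intergenic, nearest to Klf4, chr4:55493625-55493864: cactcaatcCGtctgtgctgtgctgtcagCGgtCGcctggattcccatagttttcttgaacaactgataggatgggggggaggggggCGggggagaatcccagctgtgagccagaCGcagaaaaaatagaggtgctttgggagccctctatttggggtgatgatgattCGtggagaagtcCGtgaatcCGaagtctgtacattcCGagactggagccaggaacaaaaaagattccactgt
Intron of Tfcp2l1, chr1:120546589-120546828: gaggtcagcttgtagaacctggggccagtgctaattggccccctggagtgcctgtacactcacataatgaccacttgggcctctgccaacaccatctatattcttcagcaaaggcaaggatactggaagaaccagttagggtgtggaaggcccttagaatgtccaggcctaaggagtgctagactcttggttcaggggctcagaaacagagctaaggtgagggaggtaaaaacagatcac
Intron of Trim71, chr9:114435056-114435295: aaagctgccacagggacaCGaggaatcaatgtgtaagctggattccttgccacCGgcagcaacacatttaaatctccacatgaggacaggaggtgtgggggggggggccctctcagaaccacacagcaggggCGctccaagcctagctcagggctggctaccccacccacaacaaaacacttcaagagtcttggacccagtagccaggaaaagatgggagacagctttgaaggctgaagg
Shared distal peak, intron of Wnt3, chr11:103671649-103671888: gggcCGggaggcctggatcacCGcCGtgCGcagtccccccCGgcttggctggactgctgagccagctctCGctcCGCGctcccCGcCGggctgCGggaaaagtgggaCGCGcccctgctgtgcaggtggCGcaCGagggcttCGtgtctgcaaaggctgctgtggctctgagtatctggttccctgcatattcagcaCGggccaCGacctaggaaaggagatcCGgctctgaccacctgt
Shared distal peak, intergenic, nearest to Sox14, chr9:99770919-99771158: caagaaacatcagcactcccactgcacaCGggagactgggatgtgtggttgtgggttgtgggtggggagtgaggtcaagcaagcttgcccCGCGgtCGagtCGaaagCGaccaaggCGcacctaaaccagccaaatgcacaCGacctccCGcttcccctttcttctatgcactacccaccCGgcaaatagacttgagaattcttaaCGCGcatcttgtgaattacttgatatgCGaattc

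The 6 windows of replicate 1-only distal peaks held between 0 and 9 CpG dinucleotides, with 0 at Tfcp2l1, 1 at Esrrb and 9 at Klf4. The 2 windows of shared distal peaks held 19 at Wnt3 and 13 at Sox14. Over whole classes, 6.08% (5.56 to 6.64%) of the replicate 1-only distal centres were CpG dense, defined as at least 50% G and C with a CpG count of at least 0.6 of that expected from base composition. The share was 47.6% (44.4 to 50.7%) in shared distal peaks, 55.9% in promoter peaks of replicate 1 only, 70.1% in shared promoter peaks and 0.814% in the spaced windows. Among the replicate 1-only distal peaks the CpG-dense share was 2.79% in introns, 7.12% in intergenic space and 18.3% in exons, and it was 4.03% below the first and 8.63% above the third quartile of scores.

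**Figure D1:**
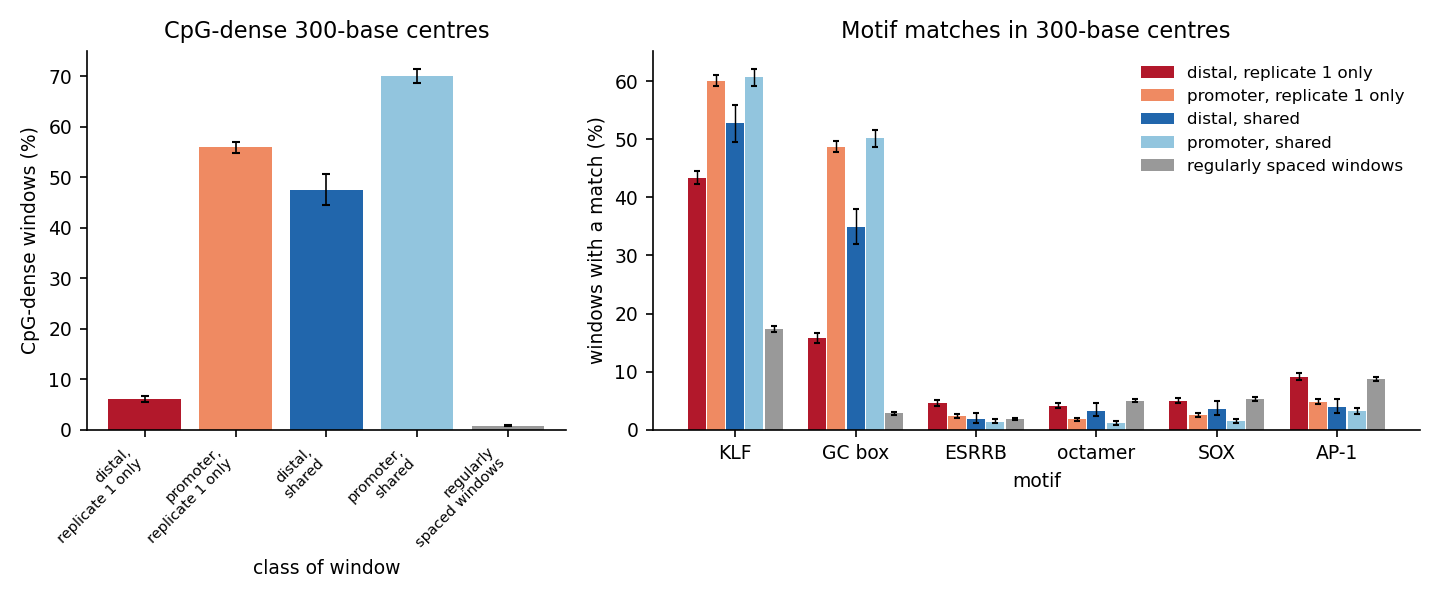
Left, share of 300-base peak centres that were CpG dense in each class of CBX6 replicate 1 peaks and in windows spaced along the genome. Right, share of the same windows with at least 1 match to each of 6 motifs on either strand. Bars give percent and lines 95% Wilson intervals. Replicate 1-only distal peaks stood at 6.08% CpG-dense windows against 47.6% in shared distal peaks, and at 4.62% for the ESRRB motif against 1.77% in the spaced windows.

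For transcription factors, 12 motifs were searched on both strands of the 300-base centres. The ESRRB motif, CAAGGTCA, named for an orphan nuclear receptor of the naive ESC network, was found in 4.62% (4.16 to 5.12%) of the replicate 1-only distal peaks. It was found in 1.86% (1.18 to 2.92%) of the shared distal peaks, 2.31% of the replicate 1-only promoter peaks and 1.77% of the spaced windows. The KLF motif, CCNCNCCC, bound by Krüppel-like factors, was found in 43.4% of the replicate 1-only distal peaks, 52.7% of the shared distal peaks and 17.3% of the spaced windows. The GC box, GGGCGG, which can lie within a KLF match, was found in 15.8%, 34.9% and 2.79% of these classes.

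The octamer of POU factors such as OCT4, ATGCNAAT, was found in 4.11% (3.68 to 4.58%) of the replicate 1-only distal peaks. It was found in 3.30% of the shared distal peaks and 4.95% (4.69 to 5.23%) of the spaced windows. For the SOX motif, ACAATGG, the shares were 5.00%, 3.51% and 5.27%, and for the AP-1 motif, TGANTCA, 9.15%, 3.92% and 8.77%. Matches to these 3 motifs were thus not more frequent in the replicate 1-only distal peaks than in the spaced windows beyond counting error. Octamer matches were less frequent in the replicate 1-only distal peaks, with intervals that did not overlap. A match to the core of the insulator factor CTCF, AGGGGGC, was found in 8.95% of the replicate 1-only distal peaks, 10.1% of the shared distal peaks and 2.32% of the spaced windows. The GAGA repeat, GAGAGAG, was found in 10.99% of the replicate 1-only distal peaks and 9.86% of the spaced windows. The NRF1 motif, GCGCNTGCG, was found in 0.859% and 0.157%, the E-box of MGA and E2F6, TCACGTGA, in 0.403% and 0.153%, and the CRE, TGACGTCA, in 0.389% and 0.188% of these classes. The YY1 motif, AAGATGGC, was less frequent in the replicate 1-only distal peaks (1.77%, 1.496 to 2.10%) than in the spaced windows (2.61%, 2.42 to 2.81%). The classes differ in GC content, and its part in these motif shares was not tested.

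**Figure D2:**
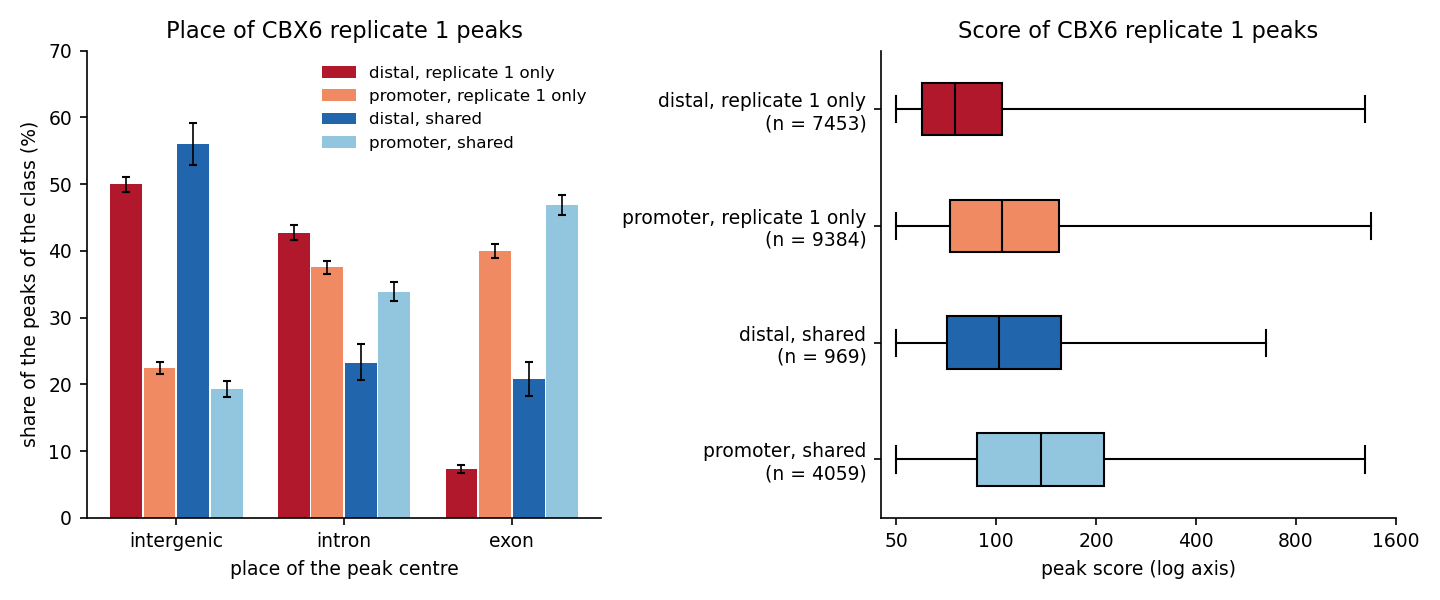
Left, share of the centres of CBX6 replicate 1 peaks in intergenic space, introns and exons, in percent with 95% Wilson intervals, for the 4 classes of peaks. Right, score of the same peaks on a log axis, with boxes from the first to the third quartile, a line at the median and whiskers to the lowest and highest value. Replicate 1-only distal peaks lay in introns more often than shared distal peaks, 42.8% against 23.2%, and had the lowest median score, 75.3.

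By position, 3724 of the 7453 distal peaks, 50.0% (48.8 to 51.1%), had their centre outside annotated genes and 3187, 42.8% (41.6 to 43.9%), in an intron. Exons held the centres of the other 542 peaks, 7.27% (6.70 to 7.88%), with 3.92% in coding exons, 2.60% in untranslated regions and 0.751% in non-coding exons. Shared distal peaks were placed differently beyond counting error, with 23.2% (20.7 to 26.0%) in introns, 56.0% (52.9 to 59.1%) in intergenic space and 20.7% (18.3 to 23.4%) in exons, mostly coding (16.3%). Placed by any overlap with an exon in place of the centre, 33.5% of the replicate 1-only distal peaks were intronic.

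The centre of a distal peak lay a median of 13989 bp from the nearest annotated transcript start, with quartiles of 7348 bp and 29243 bp and a range of 2895 to 417274 bp. Under 10 kb lay 2740 peaks (36.8%), and 301 peaks (4.04%) lay 100 kb or more away. Shared distal peaks lay closer, with 45.6% (42.5 to 48.8%) under 10 kb. The nearest peak of another list was a median of 77462 bp away, and 769 of the distal peaks (10.3%) had one within 10 kb. At the edge of the rule, 288 peaks began no more than 500 bp outside the promoter window, with a median score of 76.3, and 281 replicate 1-only promoter peaks reached no more than 500 bp into it, with a median score of 71.3. On the other edge, 9 distal peaks ended no more than 100 bp from a peak of another list, and 4 shared distal peaks were overlapped by no more than 100 bp.

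Peak scores, given by the authors' peak caller MACS, took part in deciding which regions were called and are given as a description. The distal peaks had a median score of 75.3, with quartiles of 59.6 and 104 and a range of 50.0 to 1294. Promoter peaks of replicate 1 only had a median of 104, shared distal peaks 102 and shared promoter peaks 137. Scores of 100 or more were given to 2040 distal peaks (27.4%), 200 or more to 344 (4.62%) and 400 or more to 27. Score differed little with distance, with medians between 73.5 and 77.3 in 6 bands of distance to a start, and intronic peaks had a median of 72.9 against 76.8 for intergenic ones. Widths ranged from 384 to 8870 bp with a median of 1243 bp, against 1581 bp for shared distal peaks.

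Distal peaks were spread unevenly over the chromosomes. Chromosome 11 held 647, or 5.31 per Mb, the highest density, and chromosome 14 held 192, or 1.53 per Mb, the lowest among autosomes. Chromosome X held 9, or 0.0540 per Mb, which is 0.121% (0.0635 to 0.229%) of the distal peaks, although 4.52% of the genes lie there. The X chromosome held 0.242% of all replicate 1 peaks, 1.82% of those of CBX6 replicate 2, 2.68% of CBX7 and 3.11% of RING1B.

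Many distal peaks lay in runs. Joining peaks no more than 12.5 kb apart gave 5784 groups, of which 4691 held a single peak and 338 held at least 3, and 37.1% of the distal peaks had a neighbour in their group. The largest groups held 11 peaks each. One of them spanned 58.4 kb inside Esrrb (chr12:87803566-87861959), with scores between 59.1 and 277. Another spanned 49.9 kb beside Cd9, which encodes a tetraspanin membrane protein, and Plekhg6 (chr6:125360356-125410275), with scores between 55.0 and 120. The last spanned 58.1 kb at Trim71, which encodes an RNA-binding ubiquitin ligase of early embryos, and Ccr4 (chr9:114408647-114466758), with scores between 58.7 and 209.

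The highest-scored intronic distal peak (chr11:88549913-88552524, score 995) lay in Msi2, which encodes an RNA-binding protein, 15.4 kb from a start of the gene. The next 9 intronic peaks lay in Pigl, Fndc3b, Prrc2b, Xkr5, Angptl6, Pced1b, Dysf, Ccdc57 and Dlgap4, with scores from 586 down to 379. The highest-scored intergenic peak (chr2:38273085-38274298, score 1294) was nearest, at 65.6 kb, to Lhx2 among the genes of the expression table, while another annotated transcript started 5829 bp from it. Among the same genes, the next 9 intergenic peaks were nearest to Ttc39b, Dse, Tcf15, Derl3, Bcl9l, Eno1, Ggnbp1, Dlg5 and Mtf2. Their scores went from 711 down to 470. The peak of Tcf15 lay 35286 bp from that gene and 6834 bp from another annotated transcript start. For the peak of Bcl9l these distances were 15842 and 4515 bp. The genes beside these peaks differed in RNA level. Msi2 was at 15.3 and 12.6 FPKM in the shCTL libraries, and Mtf2, which encodes an accessory subunit of PRC2, was at 104 and 99.3 FPKM. Lhx2, which encodes a neural LIM homeobox factor, was at 0.0870 and 0.115 FPKM.

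Each distal peak was assigned to the gene of the expression table holding its centre (3537 peaks) or else to the gene with the nearest start (3916 peaks), which gives 4271 of the 21919 genes with coordinates (19.5%). A single peak was assigned to 2705 genes, 2 to 856 genes, at least 3 to 710 genes and at least 5 to 209 genes. Gse1 had the most, with 17 peaks, of which 8 lay in its own introns and 9 were assigned by nearest start from introns annotated outside its span, followed by Camta1 with 14 and Igsf21 with 13. Esrrb, Tns3, Rybp and Trim71 had 12 each. The 12 peaks assigned to Rybp, which encodes a subunit of variant PRC1, were all intergenic, 48.8 to 260 kb from a start of the gene. The 11 each of Sall1 and Irf2bpl were also all intergenic. Med13l had 11 as well, of which 9 were intergenic and 2 intronic.

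Genes with a distal peak were more often expressed than other genes. Their median in the shCTL libraries was 3.79 FPKM, with medians of 3.74 and 3.73 FPKM in the single libraries, and 64.8% (63.4 to 66.2%) were at 1 FPKM or more. Genes with no distal peak had a median of 0.534 FPKM, and 46.4% (45.6 to 47.1%) were at 1 FPKM or more. The levels were higher for genes with replicate 1-only promoter peaks, at a median of 10.9 FPKM and 85.2%, and lower for genes with shared distal peaks, at 0.361 FPKM and 36.8%. Assignment favours long genes and genes with large intergenic surroundings: genes with a distal peak had a median length of 32.4 kb, against 13.5 kb for those without.

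The level was higher in genes with more distal peaks. Median levels were 2.89 FPKM with 1 peak, 4.69 FPKM with 2, 6.03 FPKM with 3 or 4 and 9.53 FPKM with at least 5, and the share at 1 FPKM or more went from 60.7% (58.8 to 62.5%) to 82.3% (76.6 to 86.9%). Gene length went up alongside, with medians of 27.5, 38.6, 53.1 and 94.6 kb, and its part in the levels was not tested. Read the other way, 9.71% of genes under 0.1 FPKM had a distal peak, and the share lay between 24.1% and 26.6% in each of 4 higher classes of level. Among genes of 10 to 50 kb only, the share was 12.4% (11.1 to 13.8%) under 0.1 FPKM and between 20.9% and 26.2% in the higher classes.

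**Figure D3:**
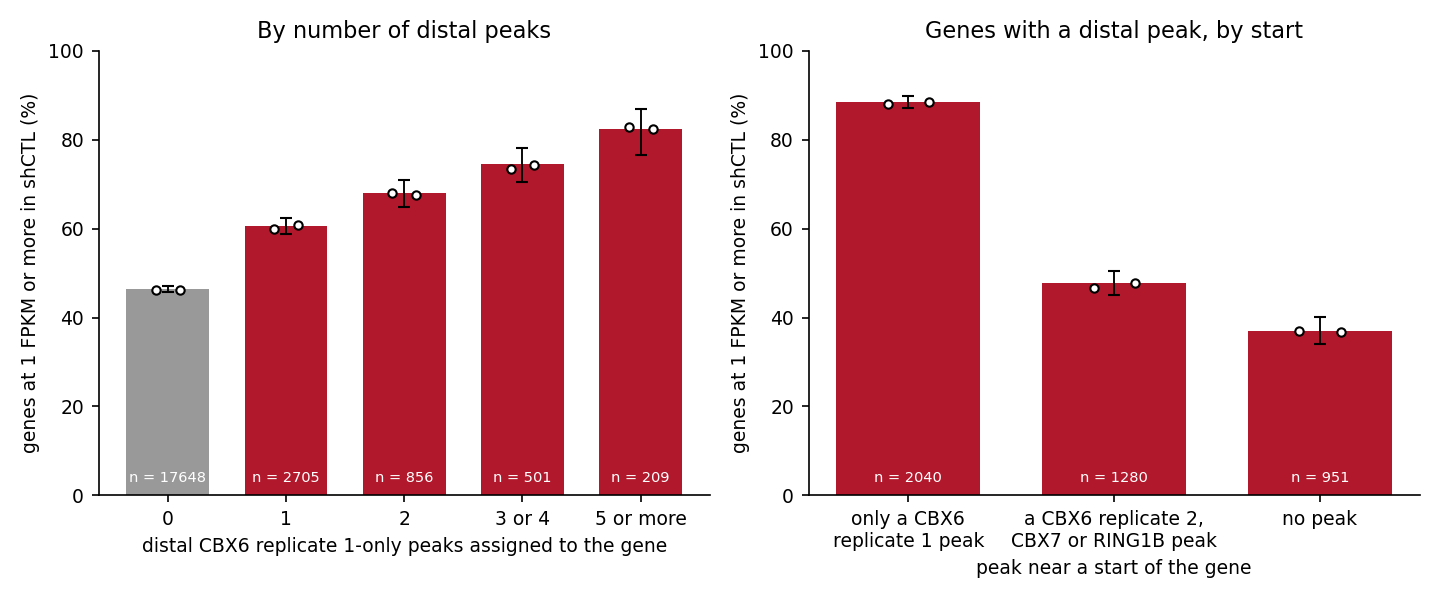
Share of genes at 1 FPKM or more in the shCTL libraries, in percent, with lines for 95% Wilson intervals and open circles for the 2 single libraries. Left, genes by the number of replicate 1-only distal CBX6 peaks assigned to them. Right, genes with such a peak by what lay near their start. The share went from 46.4% without a peak to 82.3% with 5 or more, and on the right from 88.5% to 37.0%.

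Genes with a distal peak differed widely in level by what lay at their start. Of the 4271 genes, 2040 (47.8%) had only a CBX6 replicate 1 peak within 2.5 kb of a start, and their median was 12.2 FPKM, with 88.5% at 1 FPKM or more. A peak of CBX6 replicate 2, CBX7 or RING1B stood at the start of 1280 genes (30.0%), and their median was 0.846 FPKM with 47.7% at 1 FPKM or more. For the 951 genes with no peak at the start these were 0.204 FPKM and 37.0%. Among all genes of the table with the same state of the start, with or without a distal peak, the medians were 11.9, 0.382 and 0.0103 FPKM.

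Among lists of genes with a known role, distal peaks were assigned to 27 of 37 pluripotency genes (73.0%, 75 peaks), 16 of 26 WNT pathway genes (61.5%) and 14 of 25 MAPK pathway genes (56.0%). They were also assigned to 13 of 26 chromatin remodellers and co-activators, 14 of 32 Polycomb genes, 6 of 16 housekeeping genes and 8 of 29 lineage transcription factors, beside 19.5% of all genes and 24.3% of genes at 50 FPKM or more. The lists were drawn up with earlier results of these data known, and the shares are descriptions without a test. Median gene lengths were 87.0 kb for remodellers, 58.4 kb for MAPK, 31.1 kb for WNT and 29.8 kb for Polycomb genes. They were 10.6 kb for pluripotency, 6.64 kb for housekeeping and 4.16 kb for lineage genes, beside 16.1 kb for all genes. The part of length in the shares was not tested.

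Pluripotency genes with distal peaks included Pou5f1 and Nanog of the core network, while Sox2 had none. Pou5f1, which encodes OCT4, had 2 intergenic peaks with scores of 83.7 and 77.8, lying 15.5 and 4.67 kb from a start. Nanog, a homeobox factor of the core network, had 2 intergenic peaks with scores of 170 and 155 at 4.59 and 8.46 kb. Neither reached a score of 200. Higher scores were found at Tet2, which encodes a 5-methylcytosine oxidase, with 324 for an intronic peak (chr3:133195733-133197529), and at Tfcp2l1, a naive factor, with 288 for the intronic peak whose centre is printed above. Klf4, a Krüppel-like factor of the naive state, had 3 intergenic peaks at 16.6 to 54.0 kb with scores of 69.3 to 202. Esrrb had 12 peaks, 11 of them intronic.

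Polycomb genes with distal peaks included Rybp with 12, Cbx7 with 7, Jarid2 with 5 and Cbx6 itself with 3. Those of Rybp all lay at least 48.8 kb from a start of the gene. The highest scores were those at Mtf2, Phc2 (291) and Jarid2 (284). The highest-scored peak at Cbx7 (score 232) lay 13.1 kb from a start in an intron. The highest-scored peak at Cbx6 (chr15:79653474-79656372, score 273) had its centre in the untranslated region 9.30 kb from the start. The tag was inserted at the end of this gene's coding sequence in the cells used for the CBX6 ChIP, and what part the insertion had in that peak was not tested.

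In the shRNA libraries, Cbx6 was at 17.4 and 14.9 FPKM in shCTL and at 9.53 and 5.40 FPKM in shCbx6. The groups did not overlap, with shCbx6 the lower, and the difference on the log2(FPKM + 1) scale was -1.06 (SE 0.26, adjusted p = 0.247 by limma). It was -0.70 without shCbx6 replicate 2 and -1.42 without shCbx6 replicate 1. The RNA comparison was not used to choose the peaks. In bulk RNA, fewer cells of one kind and less RNA per cell cannot be told apart.

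Of the 4271 genes with a distal peak, 2855 passed the filter of a mean of 1 FPKM in either group, and limma called 0 higher and 2 lower in shCbx6 (adjusted p below 0.05). Across the 11592 genes tested the calls were 0.0431% higher and 0.0518% lower. At an unadjusted p under 0.05, 164 genes with a distal peak (5.74%, 4.95 to 6.66%) were higher and 309 (10.8%, 9.74 to 12.0%) were lower, beside 5.12% and 6.55% of all genes tested. The called genes were Mapt, the gene of the microtubule-binding protein tau, and Emp1, which encodes an epithelial membrane protein. Mapt was at 6.94 and 7.44 FPKM in shCTL and at 0.645 and 0.914 FPKM in shCbx6, with a difference of -2.21 (SE 0.17, adjusted p = 0.0322 by limma). Emp1 was at 20.1 and 24.7 FPKM in shCTL and at 4.38 and 4.93 FPKM in shCbx6, with a difference of -2.04 (SE 0.16, adjusted p = 0.0371 by limma). The groups did not overlap for either gene. Both calls were lost with no filter on low values, and that of Mapt with quantile normalization. Both calls depended on single libraries: each was lost without shCTL replicate 1, where 0 genes with a distal peak were called lower, and without shCTL replicate 2, where 1 other gene was. The differences without these libraries were -2.25 and -2.16 for Mapt and -2.19 and -1.90 for Emp1, and both calls held without either shCbx6 library. Without shCbx6 replicate 1 limma called 72 genes with a distal peak higher and 50 lower, beside 267 and 131 of all genes tested.

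Mapt had 4 distal peaks 7.05 to 12.9 kb from a start, the highest (chr11:104149705-104152846, score 266) over a coding exon. Emp1 had 2 intergenic peaks at 77.4 and 347 kb with scores of 55.7 and 125. The next smallest p-values belonged to Lef1, Dppa3, Ina, Pde9a, Esrp1, Ifitm3, Cacnb3 and Nkx6-3, with adjusted p between 0.0588 and 0.0757 by limma, none of which passed. Lef1, a transcription factor of WNT signalling, was at 2.83 and 2.34 FPKM in shCTL and at 10.2 and 11.2 FPKM in shCbx6. Dppa3, a maternal and germline factor, was at 2.36 and 2.19 FPKM in shCTL and at 27.0 and 57.1 FPKM in shCbx6. For these 8 genes the groups did not overlap, with Pde9a and Nkx6-3 lower and the other 6 higher in shCbx6.

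By the 1.5-fold ratio of mean FPKM, a threshold without an error rate, 227 genes with a distal peak (7.95%) were higher and 278 (9.74%) were lower in shCbx6. Of all genes tested, 7.63% were higher and 6.56% were lower. Both shCbx6 values lay above both shCTL values for 560 genes with a distal peak (19.6%) and below them for 825 (28.9%), beside 18.9% and 24.4% of all genes tested. The higher shares were thus close to the background, and the lower shares were above it by both measures. With no filter on low values, 636 of 4061 genes with a distal peak (15.7%) were higher and 575 (14.2%) lower, beside 20.1% and 12.7% of all genes. Without shCbx6 replicate 1, 367 genes (12.7%) were higher and 403 (13.9%) lower, beside 12.1% and 10.1% of all genes, and without shCbx6 replicate 2, 140 (4.96%) were higher, beside 5.52%. The median difference was -0.03 on the log2 scale for genes with a distal peak and -0.01 for all genes tested.

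Genes with at least 5 distal peaks had the larger share of lower values. Of 173 that were tested, 32 (18.5%, 13.4 to 24.9%) were at least 1.5-fold lower and 9 (5.20%, 2.76 to 9.59%) at least 1.5-fold higher in shCbx6, and 64 (37.0%) had both shCbx6 values below both shCTL values, beside 24.4% of all genes tested. Leaving out 1 library at a time, the share at least 1.5-fold lower ranged from 15.0% to 24.9%, where all genes tested ranged from 7.34% to 10.1%. Limma called 0 of the 173 in either direction, and 30 (17.3%) were lower and 8 (4.62%) higher at an unadjusted p under 0.05, beside 6.55% and 5.12% of all genes tested. Igsf21, an immunoglobulin superfamily gene with 13 distal peaks, was at 3.95 and 4.38 FPKM in shCTL and at 1.32 and 0.328 FPKM in shCbx6. Camta1, a calmodulin-binding transcription factor, was at 5.75 and 6.21 FPKM in shCTL and at 3.65 and 4.23 FPKM in shCbx6. Gse1, with the most peaks, was at 11.1 and 10.4 FPKM in shCTL and at 11.1 and 15.97 FPKM in shCbx6. The groups did not overlap for Igsf21 and Camta1, both lower in shCbx6 (adjusted p = 0.175 and 0.309 by limma). At Gse1 the gap was narrow, from 11.06 FPKM in shCTL replicate 1 to 11.15 FPKM in shCbx6 replicate 1 (adjusted p = 0.634 by limma). All 3 genes had a peak of CBX6 replicate 2, CBX7 or RING1B at their start. Genes with at least 5 distal peaks had a median length of 94.6 kb, as given above. The part of length, level or the state of the start in their shares was not tested.

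**Figure D4:**
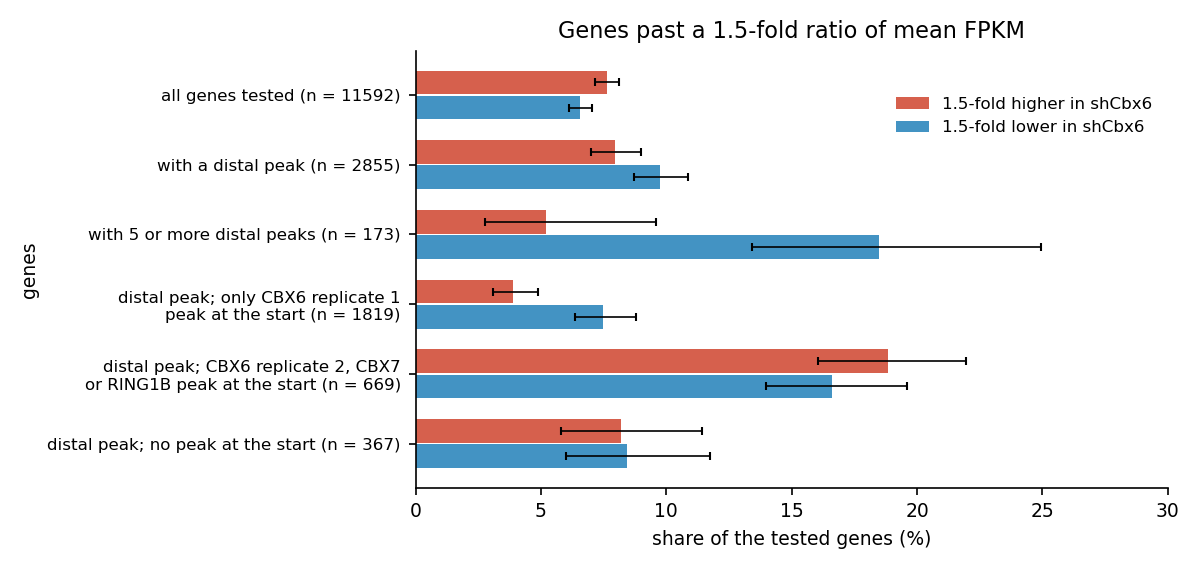
Share of tested genes whose mean FPKM was at least 1.5-fold higher (red) or at least 1.5-fold lower (blue) in shCbx6 than in shCTL, in percent with 95% Wilson intervals. Rows are all genes tested, genes with a replicate 1-only distal peak, those with 5 or more, and genes with a distal peak split by what lay near their start. The lower share was 6.56% of all genes, 9.74% with a distal peak and 18.5% with 5 or more.

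Split by the start of the gene, 1.5-fold differences in both directions made up the largest shares where a peak of CBX6 replicate 2, CBX7 or RING1B stood there. Of the 669 such genes tested, 126 (18.8%) were at least 1.5-fold higher and 111 (16.6%) at least 1.5-fold lower, beside 7.63% and 6.56% of all genes tested. With only a CBX6 replicate 1 peak at the start, 71 of 1819 genes (3.90%) were higher and 136 (7.48%) lower, and with no peak at the start, 30 of 367 (8.17%) were higher and 31 (8.45%) lower. The 3 kinds of genes differ in level, as given above, and the part of the level in these shares was not tested.

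**Figure D5:**
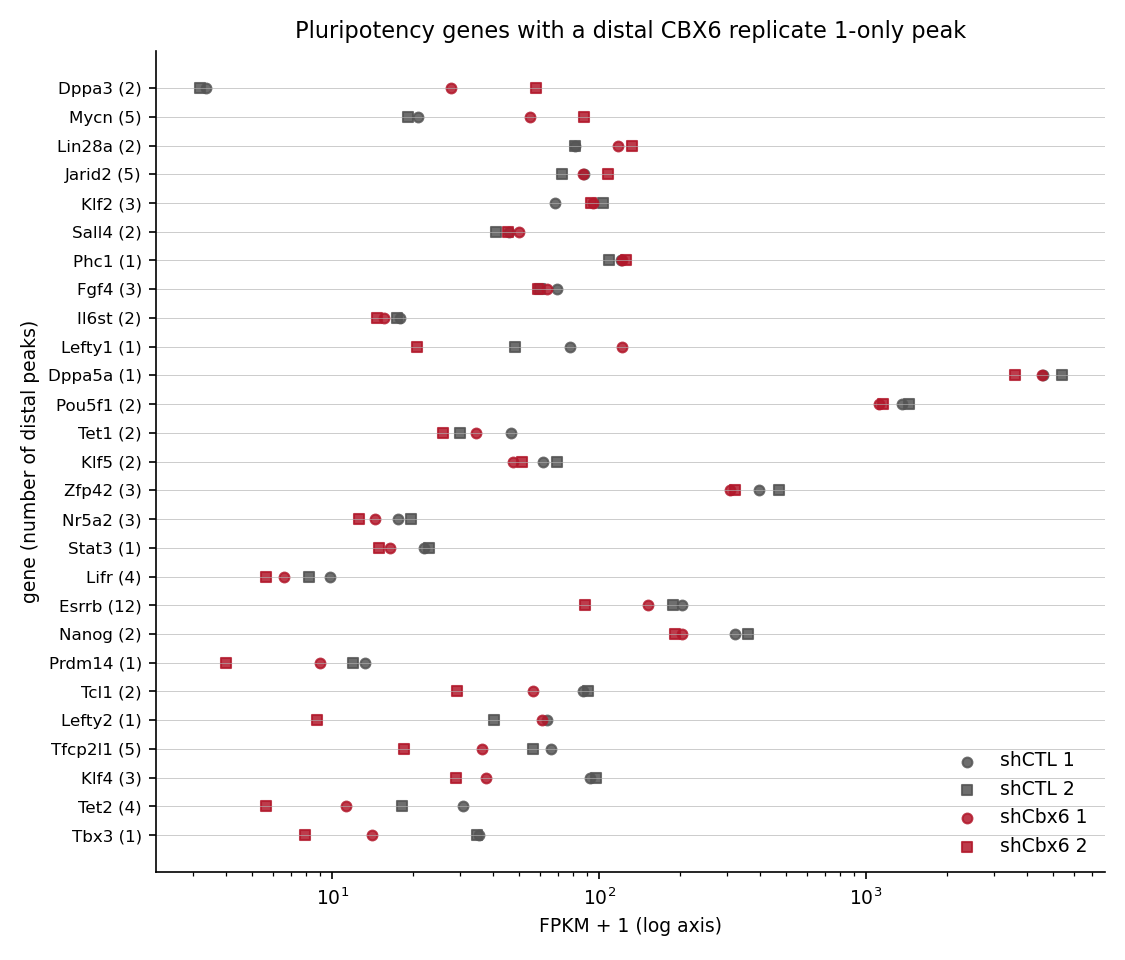
FPKM + 1 on a log axis in each of the 4 RNA libraries for the 27 pluripotency genes with a replicate 1-only distal peak, ordered by the difference between shCbx6 (red) and shCTL (grey), with the number of distal peaks beside each name. The shCbx6 values were entirely below the shCTL values for 16 genes and entirely above for 4.

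All 27 pluripotency genes with a distal peak were tested, and limma called 0 of them in either direction. At an unadjusted p under 0.05, 13 were lower and 3 higher, beside 6.55% and 5.12% of all genes tested. The mean of log2(FPKM + 1), used for the counts of higher and lower means in every list, was lower in shCbx6 for 20 and higher for 7, with a median difference of -0.40, and the number with a lower mean lay between 18 and 20 when each library was left out in turn. For 16 genes both shCbx6 values were below both shCTL values, and for 4 both were above, beside 24.4% and 18.9% of all genes tested. The 10 pluripotency genes without a distal peak had 4 lower and 6 higher means and a median difference of 0.05. The smallest adjusted p on the list was 0.0732 by limma, for Dppa3.

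Klf4 was at 91.1 and 96.7 FPKM in shCTL and at 36.7 and 28.0 FPKM in shCbx6, a difference of -1.52 (SE 0.18, adjusted p = 0.0842 by limma). Esrrb was at 203 and 189 FPKM in shCTL and at 151 and 87.2 FPKM in shCbx6, a difference of -0.76 (SE 0.28, adjusted p = 0.399 by limma). Tfcp2l1 was at 64.8 and 55.6 FPKM in shCTL and at 35.5 and 17.7 FPKM in shCbx6. All 3 had lower values in both shCbx6 libraries, and the lowest value was that of shCbx6 replicate 2. Tbx3, a T-box factor of the naive state with a peak of score 170 that lay outside the gene, 13.1 kb from its start, was at 34.3 and 33.97 FPKM in shCTL and at 13.1 and 6.90 FPKM in shCbx6. Tet2 was at 29.8 and 17.2 FPKM in shCTL and at 10.2 and 4.67 FPKM in shCbx6. Nanog was at 321 and 359 FPKM in shCTL and at 204 and 192 FPKM in shCbx6. In each of these genes the groups did not overlap.

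Mycn, Lin28a, Phc1 and Dppa3 were the 4 genes with both shCbx6 values above. Mycn, a MYC family factor with 5 distal peaks that all lay at least 45.2 kb from a start, was at 20.0 and 18.2 FPKM in shCTL and at 54.3 and 87.0 FPKM in shCbx6. Lin28a, which encodes an RNA-binding inhibitor of let-7 processing, was at 80.2 and 80.3 FPKM in shCTL and at 117 and 132 FPKM in shCbx6. Klf2 was at 67.6 and 102 FPKM in shCTL and at 93.9 and 92.6 FPKM in shCbx6, with overlapping groups. Pou5f1, among the 16 with both values below and at 1359 and 1452 FPKM in shCTL, was at 1120 and 1151 FPKM in shCbx6, a difference of -0.31 (SE 0.19, adjusted p = 0.604 by limma).

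Directions in the other lists were counted the same way, and differences between lists were not tested. Of 14 WNT pathway genes with a distal peak that were tested, 10 had a higher and 4 a lower mean in shCbx6, and of 13 MAPK pathway genes 8 were higher and 5 lower. Both shCbx6 values were above both shCTL values for 5 genes of each list, and below for 2 WNT and 5 MAPK genes, beside 18.9% and 24.4% of all genes tested. Of the WNT genes without a distal peak, 2 had a higher and 4 a lower mean, and of the MAPK genes 6 and 5. Fzd7, a WNT receptor with 6 distal peaks, was at 17.8 and 19.8 FPKM in shCTL and at 34.4 in both shCbx6 libraries. Spred2, an inhibitor of MAPK signalling with 4, was at 21.8 and 20.9 FPKM in shCTL and at 23.5 and 26.0 FPKM in shCbx6. Both had shCbx6 values above the shCTL values. Arid1a, a subunit of BAF remodelling complexes with an intronic peak of score 257, was at 49.8 and 39.0 FPKM in shCTL and at 49.6 and 53.7 FPKM in shCbx6, with overlapping groups. Of 14 Polycomb genes 6 were higher and 8 lower, of 13 chromatin remodellers and co-activators 8 were higher and 5 lower (2 and 11 among the 13 without a distal peak), of 5 housekeeping genes 4 were higher and 1 lower, and limma called 0 genes of these 5 lists in either direction. At an unadjusted p under 0.05, 4 WNT, 2 MAPK and 1 housekeeping genes were higher, and 1 WNT, 2 MAPK, 1 Polycomb and 1 remodeller genes were lower, beside 5.12% and 6.55% of all genes tested.

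Markers of cell types were summed in each library. Summed over its markers, the ESC list was at 7218 and 8306 FPKM in shCTL and at 6718 and 5775 FPKM in shCbx6, most of it Dppa5a. In the same list Sox2 was at 133 and 152 FPKM in shCTL and at 159.9 and 140 FPKM in shCbx6, and Utf1 at 136 and 191 FPKM in shCTL and at 195 and 254 FPKM in shCbx6. Primitive endoderm markers summed to at most 1.05 FPKM in any library, with 0 of 4 at 1 FPKM or more. Trophectoderm markers summed to 2.18 and 1.64 FPKM in shCTL and to 2.32 and 11.5 FPKM in shCbx6, the last through Krt7 at 9.02 FPKM, while Cdx2 and Elf5 stayed under 1 FPKM. Fibroblast markers summed to 209 and 174 FPKM in shCTL and to 164 and 139 FPKM in shCbx6, mostly Fn1 and Vim, and Col1a1, Col1a2 and Col3a1 were under 1 FPKM. Neural markers summed to 41.3 and 33.8 FPKM in shCTL and to 33.9 and 24.3 FPKM in shCbx6, mostly Tubb3. Among them Pax6 was at 1.47 and 0.569 FPKM in shCTL and at 5.51 and 1.82 FPKM in shCbx6, the other way from the sum. The part of the trophectoderm markers in the values of shCbx6 replicate 2 was not tested.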

How the data were processed

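The peak lists and the expression table were used as the authors deposited them. ChIP-seq reads were aligned by the authors to mm9 with Bowtie, keeping reads that map to 1 place, and peaks were called in each sample with MACS (shift size 75 bp). Each deposited peak carries a MACS score, which was compared only within replicate 1. RNA-seq reads were aligned with TopHat, and the authors estimated FPKM with Cufflinks. How FPKM of transcripts were combined per gene is not given in the sources used here.

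Peaks were compared by overlap of at least 1 bp in Python 3.11.15 (pandas 2.3.3, numpy 2.4.6), with every transcript start of GENCODE vM1 on mm9. RefSeq on mm9 and a repeat annotation were not used here. Of 23288 symbols, 21919 were matched to coordinates. Distances are from the peak centre. Shares have 95% Wilson intervals. The fit used limma 3.58.1 (R 4.3.3) on log2(FPKM + 1) with a trend, no replicate term and Benjamini-Hochberg adjustment over 11592 genes that reached a group mean of 1 FPKM. It was tested on simulated data. FPKM tables hold no depth, and a fold change on this scale understates the change of low genes.

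The members, lists and tests were chosen with earlier results of these data known. Named were the 10 highest intronic and intergenic peaks, the 10 genes with most peaks, pluripotency genes with a peak, limma calls filled to 10 genes by smallest p, and Cbx6. Other lists give examples by highest peak score; Cd9, Plekhg6, Ccr4, Cbx7 and Rybp (as a Polycomb gene), and marker genes named by level, were named after their values were seen.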

Additional observations from a re-analysis of the deposited data

How the results depend on the processing

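The number of distal peaks lay between 6210 and 8787 with windows of 1 or 5 kb, gene-level or protein-coding starts and other overlap rules, and was 9351 with gene-level starts of the genes in the expression table, an alternative chosen after seeing the data. It was 4498 with a 10 kb window and 2040 at scores of at least 100. The intronic share was 40.3% with a 10 kb window, 38.8% at scores of at least 100, 33.5% placed by any overlap and 41.1% with protein-coding genes only. The intergenic share was 47.8%, 51.9% and 55.0% with windows of 1, 5 and 10 kb, 53.5% at scores of at least 100, 48.7% placed by any overlap and 52.0% with protein-coding genes only. The median level in shCTL was 3.87 FPKM with the nearest start for every peak, 3.95 FPKM for host genes only, 4.88 FPKM at scores of at least 100 and between 3.73 and 3.74 FPKM with 1 library.

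Of the genes with a distal peak, limma called 2 higher with a pseudocount of 0.1 (0.0701%, beside 0.0949% of all genes) and 1 higher with the nearest start for every peak (0.0346%, beside 0.0431%), and 0 lower with no filter on low values (beside 0.00538%) and 1 lower with quantile normalization (0.035%, beside 0.0431%). With each library left out in turn it called between 0 and 72 higher and between 0 and 50 lower. The largest counts, 72 higher and 50 lower (2.49% and 1.73%, beside 2.28% and 1.12% of all genes tested), came without shCbx6 replicate 1, where the lone shCbx6 library is assumed to vary like the others. With the replicate number as a block, 51 were higher and 91 lower (1.79% and 3.19%, beside 1.58% and 1.77% of all genes). Deviations of same-numbered libraries had a correlation of 0.27 over 11592 genes, which does not establish that the numbers pair the libraries. With 2 libraries per group, both pairs give this value by construction. Counts past 2-fold were 96 higher and 100 lower (3.36% and 3.50%, beside 3.79% and 2.31% of all genes), and without a filter on low values 636 higher and 575 lower were past 1.5-fold (15.7% and 14.2%, beside 20.1% and 12.7%). With each library left out the 1.5-fold counts were between 140 and 367 higher and between 288 and 403 lower. The 140 came without shCbx6 replicate 2 and the 367 without shCbx6 replicate 1. The median score lay between 74.5 and 75.3 in the alternatives run, and none of the 11 genes Cbx6, Mapt, Emp1 and the next 8 by p changed direction in 88 alternatives. Cbx6 and these 8 passed the threshold with the replicate block and without shCbx6 replicate 1, Lef1 and Dppa3 with a pseudocount of 0.1, and Dppa3 and Esrp1 without shCbx6 replicate 2. Mapt and Emp1 lost it with no filter and without either shCTL library, and Mapt with quantile normalization.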

Other observations

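Of the 8 lineage transcription factors with a distal peak, 7 did not pass the filter on low values. After Lhx2, the highest peak scores were those at Cdx2 (111) and Foxa2 (93.0), and Foxa2 was at 0.0471 and 0.0155 FPKM in shCTL. The distance of the nearest distal peak went with the level of the gene: the median in shCTL was 5.18 FPKM for genes with a peak under 10 kb from a start, 3.54 FPKM at 10 to 50 kb and 1.05 FPKM at 50 kb or more, while median gene lengths were 24.2, 35.0 and 80.2 kb. By score, genes whose highest distal peak lay below the first quartile of scores had a median of 2.82 FPKM and those above the third quartile 5.01 FPKM.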
